A study of Arabidopsis thaliana with 24 samples.

Results

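In germinating *Arabidopsis thaliana* seed 22746 probe sets were measured, and 13350 genes were named by a probe set of their own. Described here are 6 of the measured respiratory genes that are encoded in the mitochondrial genome itself: *nad4L*, *nad6*, *nad9*, *cox2*, *ccb206* and *ccb382*. The choice of these 6 was made with earlier results of these data known. Further measured genes of the same machinery, among them *nad1*, *nad5*, *cox1* and *ccb452*, are given below with the other mitochondrial genome genes. Probe sets were taken by annotation, as those named for 1 of the 6 genes alone, and each gene had 1 such probe set. Single-colour Affymetrix arrays were made from whole seed, 3 in each of 8 groups, and values are linear array intensities. Seed came from 2 genotypes, wild type in the Col-0 background (WT) and *Attim17-1*, called tim17-1 here, each at 4 stages. TIM17 proteins form part of the translocase that moves nuclear-encoded proteins across the mitochondrial inner membrane. *TIM17-1* itself is not analysed here. The labels name no agent for any group, and all seed was surface sterilised and plated on MS medium. The stages were dry seed (0 h), seed held for 48 h in darkness at 4 °C (48 h S), and stratified seed given 6 h (6 h SL) and then 24 h (24 h SL) of constant light at 22 °C. The labels put dry seed at 15 days of ripening in 1 place and 14 days after collection in another, and call only WT dry seed freshly harvested. What kind of allele *Attim17-1* is, and whether arrays of a group came from separate seed lots, the labels do not say. The p-values therefore rest on the spread among 3 arrays a group, which may be technical.

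Plant mitochondria keep a small genome that encodes a minority of the subunits of the respiratory chain, and the nucleus encodes the rest. NADH dehydrogenase (complex I) takes electrons from NADH and pumps protons, and cytochrome c oxidase (complex IV) passes electrons from cytochrome c to oxygen. The cytochrome c maturation pathway attaches haem to cytochromes c and c1. Dry seed stores transcripts made during maturation, and respiration resumes within the first hours of imbibition. Plant mitochondrial transcripts carry no stable poly(A) tail, and tails on them mark RNA for decay. Standard labelling for these arrays starts from the poly(A) tail, so whether the values follow all or only tailed mitochondrial RNA was not tested. The nuclear chromosome 2 of *Arabidopsis* holds a large copy of the mitochondrial genome, and near-identical copies cannot be told apart by these probes. The *nad6* probe set belongs to a class that may hybridise with more than 1 transcript. In whole seed, fewer mitochondria and less RNA per mitochondrion cannot be told apart either.

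The upper quartile of the arrays lay between 234.2 and 258.0 and the lower quartile between 5.69 and 6.63. Changes are given on the log2 scale of intensity plus 16, as mean ± SE from limma's linear model of all 24 arrays, and a change was called at a Benjamini-Hochberg adjusted p under 0.05 over all 22746 probe sets. The offset understates the changes of weak transcripts. The root mean square distance between arrays of a group ranged from 0.108 to 0.244 log2 units, with the longest distances at tim17-1 0 h replicate 1. The median change over all probe sets was within 0.031 log2 units of 0 in each comparison.

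From dry to stratified seed, all 6 transcripts fell in both genotypes. In WT 6 of 6 were called lower, beside 44.7% of all probe sets, and 0 were called higher, beside 28.4%. In tim17-1 6 of 6 were called lower, beside 32.9% of all probe sets, and 0 higher, beside 26.8%. The median change of the 6 was -3.10 in WT and -2.97 in tim17-1. The smallest fall was that of *ccb382*, and the other 5 genes each fell by at least 1.52 log2 units. Over the same step 9 of 11 pollen markers were called lower and 1 higher in WT (median -2.43). In tim17-1 7 were called lower and 1 higher, beside the shares of all probe sets above. Their summed intensity went from 2072 to 2440 in WT and 608 to 908 in tim17-1 to 268 to 276 and 251 to 279. At 48 h S 1 of the 11 had a mean over an intensity of 64 in each genotype. The difference between 3' and 5' control probe sets of ubiquitin, a measure of RNA integrity, went from -0.21 ± 0.0265 to 0.12 ± 0.107 log2 units in WT and from -0.34 ± 0.0614 to 0.19 ± 0.0976 in tim17-1 (SD, n = 3), without overlap. Those of actin and GAPDH overlapped between the 2 stages in WT and were higher at 48 h S without overlap in tim17-1. Their part in the falls was not tested.

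Among the subunits of complex I, *nad9* encodes a subunit of the peripheral arm, and *nad4L* and *nad6* encode subunits of the membrane arm. In WT dry seed, *nad9* read 1162.65, 1161.68 and 1144.5, and in stratified seed it read 70.93, 80.56 and 68.97. In tim17-1 the dry arrays read 876.29, 895.75 and 747.89 and the stratified arrays 61.25, 51.39 and 62.32. The dry and stratified arrays lay far apart in both genotypes, and stratified seed kept 6.36% of the dry level in WT and 6.94% in tim17-1. The change was -3.71 ± 0.0857 in WT (limma adjusted p = 3.55e-17) and -3.52 ± 0.0857 in tim17-1 (adjusted p = 6.55e-17).

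The probe set of *nad4L* read 516.6, 588.48 and 613.71 in WT dry seed and 50.33, 64.96 and 45.59 after stratification. In tim17-1 it read 521.14, 516.25 and 408.68 in dry seed and 36.21, 37.97 and 39.34 after stratification. Each stratified array was far below each dry array. The change was -3.09 ± 0.106 in WT and -3.20 ± 0.106 in tim17-1. For *nad6*, WT dry seed read 199.65, 242.75 and 263.23 and WT stratified seed 14.74, 15.23 and 9.19. In tim17-1 the dry arrays read 174.05, 165.85 and 154.51 and the stratified arrays 13.62, 8.36 and 11.99. The groups of the 2 stages did not overlap in either genotype, and *nad6* fell by 3.11 log2 units in WT and by 2.73 log2 units in tim17-1 (SE 0.0885 in each).

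*cox2*, which encodes the complex IV subunit that receives electrons from cytochrome c, fell most of the 6. WT dry seed read 5649.08, 5637.74 and 5175.92 and WT stratified seed 248.08, 249.6 and 259.43. In tim17-1 the dry arrays read 4045.49, 4555.84 and 4329.85 and the stratified arrays 219.07, 212.54 and 233.98. The dry mean was thus 21.7 times the stratified mean in WT and 19.4 times in tim17-1, with no array of 1 stage near the other. The change was -4.36 ± 0.0726 in WT (limma adjusted p = 4.56e-19) and -4.18 ± 0.0726 in tim17-1 (adjusted p = 6.74e-19).

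Both remaining genes act in cytochrome c maturation. *ccb206*, named *ccmB* in the TAIR10.1 gene table, encodes a membrane subunit of an ABC-type transporter of the pathway, and *ccb382*, named *ccmFN1* there, encodes part of the haem lyase. *ccb206* read 77.91, 86.25 and 77.21 in WT dry seed and 6.99, 7.98 and 6.95 after stratification. In tim17-1 it read 50.23, 43.63 and 56.7 in dry seed and 6.96, 7.37 and 6.54 after stratification. The stratified values of both genotypes lay just above the lower quartile of their arrays, and no detection call came with the values. The change was -2.05 ± 0.0551 in WT and -1.52 ± 0.0551 in tim17-1.

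*ccb382* followed another course. It read 635, 624.79 and 613.83 in WT dry seed and 382.44, 350.89 and 360.5 after stratification. In tim17-1 it read 659.9, 710.51 and 715.58 in dry seed and 406.75, 406.53 and 375.23 after stratification. The stages did not overlap, but stratified seed kept 58.4% of the dry level in WT and 57.0% in tim17-1. The change was -0.75 ± 0.0862 in WT (limma adjusted p = 3.53e-07) and -0.79 ± 0.0862 in tim17-1 (adjusted p = 1.89e-07).

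**Figure D1:**
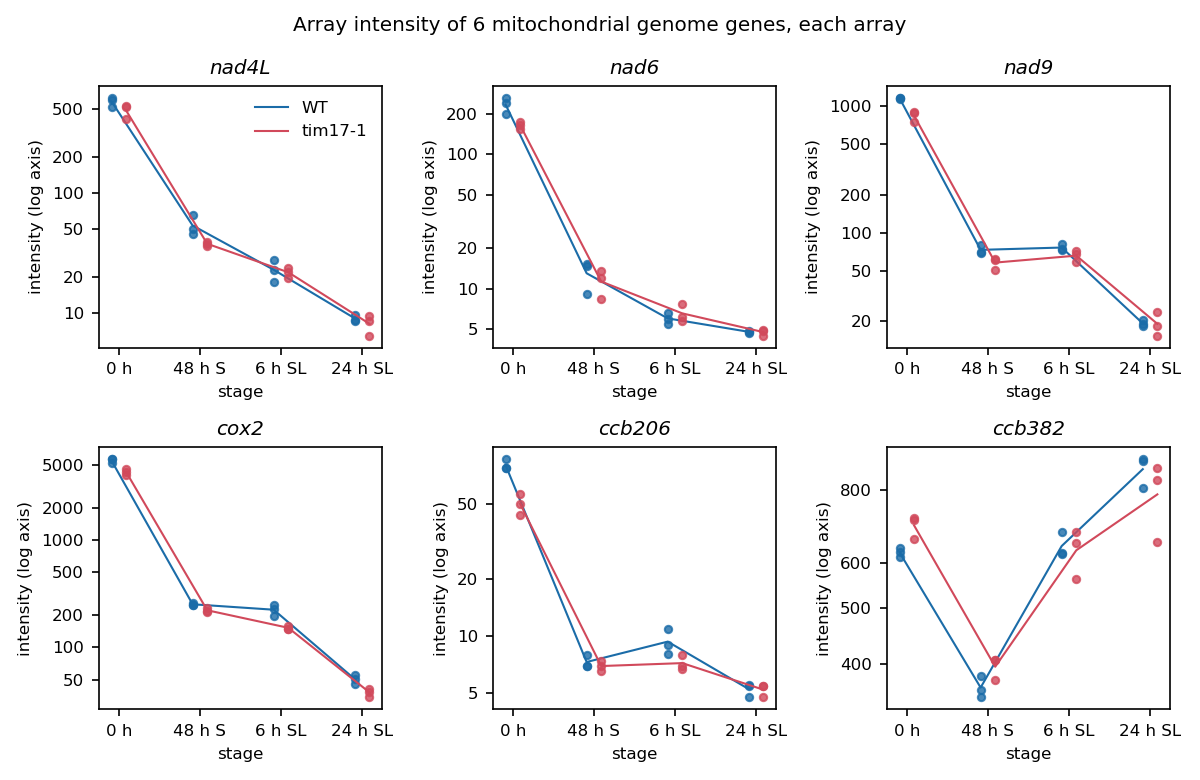
Intensity (log axis) of each of the 6 probe sets in dry seed (0 h), stratified seed (48 h S) and stratified seed after 6 h or 24 h of light (6 h SL, 24 h SL); points are arrays, lines join the means of 3 arrays, and each panel has its own range. In 5 panels the dry seed arrays stand far above all others, whereas *ccb382* is lowest at 48 h S and highest at 24 h SL.

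On the move from stratification to 6 h of light, the genes parted. In WT, *nad4L* and *nad6* were called lower, 2 of 6 beside 18.4% of all probe sets, and *ccb382* was called higher, 1 of 6 beside 19.4%. In tim17-1, *nad4L*, *nad6* and *cox2* were called lower, 3 of 6 beside 19.2% of all probe sets, and *ccb382* higher, 1 of 6 beside 18.9%. *ccb382* rose to 624.26, 621.49 and 676.76 in WT and to 649.38, 561.89 and 678.75 in tim17-1. With a change of 0.79 ± 0.0862 in WT and 0.64 ± 0.0862 in tim17-1, it returned to 103% and 90.6% of its own dry seed mean. Over this step the GAPDH 3' to 5' difference in WT went from 0.03 ± 0.0862 to -0.16 ± 0.0444 log2 units (SD, n = 3), without overlap. That of ubiquitin in tim17-1 went from 0.19 ± 0.0976 to 0.04 ± 0.00844 (SD, n = 3), also without overlap. The other control differences overlapped between the stages, and the part of these shifts in the changes was not tested.

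*nad4L* fell further at 6 h SL, to 28, 18.3 and 22.79 in WT and to 23.8, 19.8 and 22.24 in tim17-1, below every stratified array of its genotype. The change was -0.83 ± 0.106 in WT (limma adjusted p = 3.81e-06) and -0.51 ± 0.106 in tim17-1 (adjusted p = 0.000788). *nad6* read 5.49, 5.98 and 6.61 in WT and 6.21, 5.81 and 7.68 in tim17-1, near the lower quartile of the arrays. Its fall was 0.39 ± 0.0885 in WT and 0.27 ± 0.0885 in tim17-1, on the log2 scale and called in both. The tim17-1 call of *nad6* (limma adjusted p = 0.0206) was lost on leaving out tim17-1 48 h S replicate 1 or 3, or tim17-1 6 h SL replicate 1 or 2, with adjusted p between 0.0580 and 0.106.

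No change of *nad9* was called at 6 h SL, where it read 75.32, 81.51 and 73.12 in WT and 68.45, 58.62 and 71.4 in tim17-1, and the arrays of both stages overlapped in each genotype. Its change had an interval of -0.13 to 0.23 in WT and of -0.04 to 0.33 in tim17-1 (95% confidence). *cox2* at 6 h SL read 226.71, 249.34 and 197.41 in WT and 148.85, 158.63 and 149.34 in tim17-1. In WT these arrays overlapped the stratified ones, with a change of -0.16 ± 0.0726 (limma adjusted p = 0.0924), which passed without WT 6 h SL replicate 2 (-0.24, adjusted p = 0.0157). In tim17-1 all 3 lay below the stratified arrays, with a change of -0.50 ± 0.0726 (adjusted p = 1.77e-05). The difference between those 2 changes, -0.34 ± 0.103, did not pass the test over all probe sets (adjusted p = 0.179). *ccb206* stayed low, at 9.03, 10.99 and 8.08 in WT and 7.0, 6.68 and 7.95 in tim17-1, with no call in either genotype.

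Between 6 h and 24 h of light a further fall followed. In WT, *nad4L*, *nad9*, *cox2* and *ccb206* were called lower, 4 of 6 beside 25.1% of all probe sets, and *ccb382* higher, 1 of 6 beside 20.5%. In tim17-1, *nad4L*, *nad9* and *cox2* were called lower, 3 of 6 beside 22.5% of all probe sets, and *ccb382* higher, 1 of 6 beside 20.7%. Over this step the actin 3' to 5' difference went from 1.33 ± 0.0773 to 1.59 ± 0.0474 log2 units in WT and from 1.32 ± 0.0734 to 1.64 ± 0.0934 in tim17-1 (SD, n = 3), without overlap. That of GAPDH was also higher at 24 h SL without overlap in WT, that of GAPDH in tim17-1 and those of ubiquitin overlapped, and their part in the changes was not tested.

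*cox2* reached 50.43, 55.85 and 45.6 in WT and 41.38, 34.36 and 38.77 in tim17-1, clear of every 6 h SL array. The change was -1.85 ± 0.0726 in WT and -1.64 ± 0.0726 in tim17-1, and at 24 h SL 0.923% of the dry seed mean was left in WT and 0.886% in tim17-1. *nad9* reached 19.15, 18.36 and 20.4 in WT and 18.34, 23.69 and 15.45 in tim17-1. It fell by 1.39 and 1.23 log2 units from 6 h SL, with no overlap between the 2 stages. *nad4L* read 9.79, 8.8 and 8.73 in WT and 8.65, 9.48 and 6.54 in tim17-1, a change of -0.63 and -0.65 log2 units (SE 0.106).

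At this last stage 2 transcripts were at the bottom of the measured range. *nad6* read 4.79, 4.86 and 4.71 in WT and 4.48, 4.92 and 4.89 in tim17-1, below the lower quartile of each of the 6 arrays. *ccb206* read 5.55, 4.76 and 5.45 in WT and 5.46, 4.76 and 5.43 in tim17-1, also below each array's lower quartile. How far these values lie above background is not known here, so the changes fitted to them are limited by it. The fall of *ccb206* was called in WT (-0.25 ± 0.0551, limma adjusted p = 0.000799) and not in tim17-1 (-0.13 ± 0.0551, adjusted p = 0.0697), and the difference between genotypes was not called (adjusted p = 0.775).

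*ccb382* went the other way once more. It read 904.93, 898.76 and 807.41 in WT, above each WT array of every earlier stage, and 876.08, 833.1 and 652.34 in tim17-1, where 1 array overlapped the 6 h SL range. The change was 0.43 ± 0.0862 in WT and 0.31 ± 0.0862 in tim17-1 (limma adjusted p = 0.00666). The tim17-1 call was lost when tim17-1 6 h SL replicate 2 (0.23, adjusted p = 0.0509) or 24 h SL replicate 1 (0.23, adjusted p = 0.0513) was left out. At 24 h SL the mean of *ccb382* was 139% of its dry seed mean in WT and 113% in tim17-1.

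**Figure D2:**
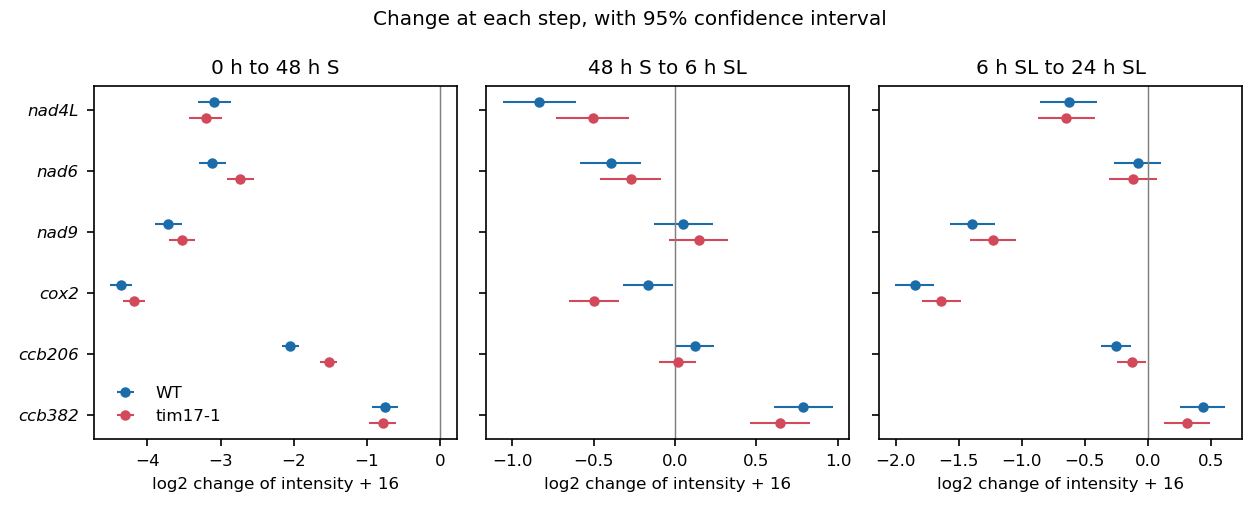
Change in log2(intensity + 16) of each gene over the 3 steps in WT and tim17-1; points are estimates, bars are 95% confidence intervals, and the panels differ in scale. All 6 genes lie below 0 in the step from 0 h to 48 h S, while *ccb382* lies above 0 in both later steps.

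The order of the 8 groups was nearly shared by 5 of the genes, with WT dry seed first and tim17-1 dry seed next. For *nad4L* these 2 groups overlapped, and for *nad6*, *nad9*, *cox2* and *ccb206* they did not. The lowest places went to the 2 groups at 24 h SL, which overlapped for *nad4L*, *nad6*, *nad9* and *ccb206* and were separate only for *cox2*. In between, neighbours that overlapped were WT and tim17-1 at 6 h SL for *nad4L*, WT and tim17-1 at 48 h S and again at 6 h SL for *nad6*, the 4 groups at 48 h S and 6 h SL in sequence for *nad9*, WT 48 h S, WT 6 h SL and tim17-1 48 h S for *cox2*, and WT 48 h S, tim17-1 6 h SL and tim17-1 48 h S for *ccb206*. For *ccb382* the order ran from WT 24 h SL down to WT 48 h S, every pair of neighbours overlapped except WT 0 h and tim17-1 48 h S, and the 2 stratified groups were lowest. Over the 8 group means, Pearson's r between any 2 of the first 5 genes was 0.954 to 0.995, and r of *ccb382* with them was -0.108 to 0.122. The points share arrays and stages, and the first 5 values mostly restate the gap between dry and imbibed seed.

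Dry seed of tim17-1 held less of 4 of these transcripts than WT dry seed. *nad6*, *nad9*, *cox2* and *ccb206* were called lower, 4 of 6 beside 2.33% of all probe sets, and 0 of 6 were called higher, beside 1.32%, also at an unadjusted p under 0.05. In each of the 4 genes the 3 tim17-1 arrays lay below the 3 WT arrays listed above. *ccb206* differed by -0.55 ± 0.0551 (limma adjusted p = 4.69e-06), with a mean of 80.5 ± 5.03 in WT and 50.2 ± 6.54 in tim17-1 (SD, n = 3).

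*nad6* differed by -0.47 ± 0.0885 (limma adjusted p = 0.00407), *nad9* by -0.46 ± 0.0857 (adjusted p = 0.00368) and *cox2* by -0.35 ± 0.0726 (adjusted p = 0.00919). The mean of *nad9* was 1156 ± 10.2 in WT and 840 ± 80.3 in tim17-1, and that of *cox2* was 5488 ± 270.0 and 4310 ± 256 (SD, n = 3). *nad4L* had overlapping arrays and a difference of -0.25 ± 0.106 (adjusted p = 0.284). *ccb382* was the one gene with a higher mean in tim17-1, and its arrays did not overlap, but the difference of 0.15 ± 0.0862 did not pass (adjusted p = 0.473). Fitted on the 6 dry seed arrays alone, the same differences gave 0 calls, with adjusted p between 0.153 and 0.305 for the 4 genes. The call of *nad6* was also lost with an offset of 1 (adjusted p = 0.109), and array weights (weighting each array by its spread) left 2 calls, *nad6* and *ccb206*.

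Other measures moved with genotype in the same dry seed arrays. Of 11 measured pollen marker genes, 9 were lower in tim17-1, with a median of -1.44, and their summed intensity was 2072 to 2440 in WT and 608 to 908 in tim17-1. The ubiquitin 3' to 5' difference given above, -0.21 in WT and -0.34 in tim17-1, did not overlap between genotypes, and those of actin and GAPDH did. Their part in the lower values of *nad6*, *nad9*, *cox2* and *ccb206* was not tested. Of the seed coat markers 2 were measured, with 0 over an intensity of 64 in any group, and no endosperm marker was measured. The seed storage genes *AT1G03890* and *OLEO3* summed to 8149 to 9260 over the dry seed arrays. Since the labels call only WT dry seed freshly harvested, genotype and any difference in the age of the seed cannot be told apart.

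In stratified seed no member passed the test between genotypes. At 48 h S, 0 of 6 were called lower, beside 0.87% of all probe sets, and 0 higher, beside 0.361%, while 3 were lower at an unadjusted p under 0.05. The 3 genes were *nad4L* (-0.36 ± 0.106), *nad9* (-0.27 ± 0.0857) and *cox2* (-0.17 ± 0.0726), each with all tim17-1 arrays below all WT arrays. How many of all probe sets separate in this way was not counted. With array weights 3 of 6 were called lower at this stage.

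*cox2* was the one member called at 6 h SL, where 1 of 6 was lower beside 0.769% of all probe sets and 0 were higher beside 0.51%. Its mean was 224 ± 26.0 in WT and 152 ± 5.51 in tim17-1 (SD, n = 3), the arrays did not overlap, and the difference was -0.51 ± 0.0726 (limma adjusted p = 0.00154). On the 6 arrays of that stage alone it did not pass (adjusted p = 0.213). On the same arrays the GAPDH 3' to 5' difference was -0.16 ± 0.0444 log2 units in WT and -0.01 ± 0.0682 in tim17-1 (SD, n = 3), without overlap, while those of actin and ubiquitin overlapped, and its part in the value of *cox2* was not tested.

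At 24 h SL *cox2* was again the one member called, 1 of 6 lower beside 2.73% of all probe sets and 0 higher beside 1.59%. The mean was 50.6 ± 5.13 in WT and 38.2 ± 3.55 in tim17-1, without overlap, and the difference was -0.30 ± 0.0726 (limma adjusted p = 0.0231). No member was higher in tim17-1 at any of the 4 stages at an unadjusted p under 0.05. The call of *cox2* at 24 h SL was lost on leaving out WT 24 h SL replicate 1 or 2 or tim17-1 24 h SL replicate 2 or 3, with differences from -0.31 to -0.24 and adjusted p between 0.0565 and 0.111. It was also lost with an offset of 64, with array weights and on the 6 arrays of that stage alone (adjusted p = 0.137, 0.0608 and 0.284). For the other 5 genes at 24 h SL the WT and tim17-1 arrays overlapped.

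Averaged over the 4 stages, *cox2* (-0.33 ± 0.0363, limma adjusted p = 3.37e-05), *nad9* (-0.23 ± 0.0428, adjusted p = 0.00433) and *ccb206* (-0.17 ± 0.0276, adjusted p = 0.00109) were called lower in tim17-1. That was 3 of 6 beside 3.08% of all probe sets, and 0 were called higher beside 1.11%. Without dry seed, in an average chosen after seeing the data, *cox2* alone was called, *nad9* stood at -0.15 (adjusted p = 0.123) and *ccb206* at -0.05 (adjusted p = 0.584).

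The difference of the steps between genotypes was tested directly. From 0 h to 48 h S, *ccb206* fell by less in tim17-1, with a difference of 0.53 ± 0.0780 (limma adjusted p = 0.00067), 1 of 6 called higher beside 1.53% of all probe sets and 0 lower beside 1.15%. Its genotype difference was -0.55 in dry seed and -0.02 ± 0.0551 in stratified seed, where both genotypes were near the bottom of the measured range, which limits how far either fall could be measured. The 0.53 is therefore largely the dry seed difference again. The same difference was 0.38 ± 0.125 for *nad6*, which did not pass (adjusted p = 0.130). It passed without WT 0 h replicate 1 (0.49, adjusted p = 0.0239), with an offset of 64 (0.35, adjusted p = 0.0184) and with array weights (0.46, adjusted p = 0.0404). In the step from 48 h S to 6 h SL, 0 of 6 differed higher, beside 0.47%, and 0 lower, beside 0.246%, with 1 in each direction at an unadjusted p under 0.05. In the step from 6 h SL to 24 h SL, 0 of 6 differed higher, beside 0.4%, and 0 lower, beside 1.13%, also at an unadjusted p under 0.05.

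**Figure D3:**
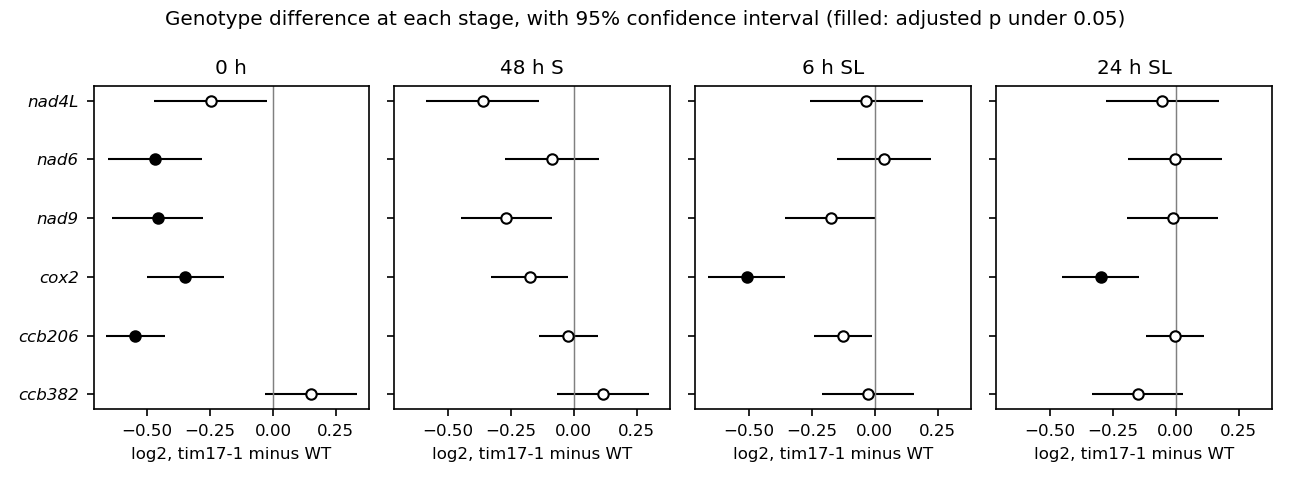
Difference of tim17-1 minus WT in log2(intensity + 16) for each gene at the 4 stages; points are estimates, bars are 95% confidence intervals, and filled points have an adjusted p under 0.05. Filled points appear for *nad6*, *nad9*, *cox2* and *ccb206* at 0 h and for *cox2* at 6 h SL and 24 h SL.

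Of 26 other mitochondrial genome genes 10 were measured, and they too were lower after stratification. From 0 h to 48 h S, 10 of 10 were called lower in WT (median -1.39), beside 44.7% of all probe sets. In tim17-1 9 of 10 were called lower (median -1.32), beside 32.9%. In neither genotype was 1 called higher, beside 28.4% in WT and 26.8% in tim17-1. *nad5* and *nad1*, both complex I membrane subunits, changed by -3.05 ± 0.116 and -3.04 ± 0.118 in WT, beside -3.09 for *nad4L* and -3.11 for *nad6*. *ccb203*, of the haem pathway, had the smallest change (-0.23 ± 0.0631 in WT). It read 3.93, 10.87 and 6.46 in WT dry seed, around the lower quartile of the arrays, so no large fall could be measured. *nad2* and *nad7* were also dim, with means of 21.9 and 36.1 in WT dry seed, which limits their falls and the list's median. *cox1*, the catalytic subunit of complex IV, fell by 1.63 log2 units in WT where its partner *cox2* fell by 4.36 log2 units. None of these 10 genes was called higher in any step of either genotype, whereas *ccb382* was called higher in both later steps of both. *AT2G07707*, a chromosome 2 locus in the copy of the mitochondrial genome, was also called higher from 48 h S to 6 h SL in both genotypes. *ccb452*, a further part of the haem lyase, changed by -1.84 ± 0.116 in WT between 6 h SL and 24 h SL, over which *ccb382* changed by 0.43. In dry seed 1 of these 10 genes was called lower in tim17-1, beside 2.33% of all probe sets, and 0 higher, beside 1.32%. It was *nad7*, at -0.37 ± 0.0506 (limma adjusted p = 0.000149). At 48 h S, 6 h SL and 24 h SL 0 of 10 were called in either direction. At 24 h SL *cox1* was higher in tim17-1 without overlap, where *cox2* was lower. That *cox1* difference, 0.41 ± 0.124, did not pass (limma adjusted p = 0.0785).

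Nuclear genes for the same complexes mostly moved in the opposite direction to the 6 genes as seed left the dry state. The counts below for this step stand beside 28.4% of all probe sets called higher and 44.7% called lower in WT. In tim17-1 the shares were 26.8% higher and 32.9% lower. Of 11 measured nuclear genes of complex I, 7 were called higher and 3 lower in WT from 0 h to 48 h S (median 0.78), with *AT2G20360* at 1.92 ± 0.0964. For complex IV and its assembly, 6 of 7 were higher and 0 lower (median 0.70), with *AT5G61310* at 3.70 ± 0.0851. Of 5 genes for cytochrome c, cytochrome c1 and nuclear maturation factors, 4 were higher and 1 lower: *CYTC-1* rose by 1.94 ± 0.0634 and *CYTC-2*, the other cytochrome c gene, changed by -1.32 ± 0.0956. In complexes II, III and V, of which none of the 6 genes encodes a subunit, 6 of 9 were higher and 3 lower. In tim17-1 these lists had 7 higher and 2 lower for complex I, 6 and 1 for complex IV, 3 and 1 for cytochrome c, and 6 and 2 for the other complexes. Of these 23 genes of complex I, complex IV and the cytochrome c list, 0 were called between genotypes at any of the 4 stages by limma. That stood beside at most 2.73% lower and 1.59% higher of all probe sets at a stage. At an unadjusted p under 0.05 there were 5 at 0 h and 1 at 24 h SL, beside 3284 and 3087 of all 22746 probe sets. Of the 9 genes of complexes II, III and V, *SDH2-1*, a subunit of succinate dehydrogenase, was called lower in tim17-1 at 6 h SL (-0.28 ± 0.0652, limma adjusted p = 0.0398) and averaged over stages (-0.18 ± 0.0326, adjusted p = 0.00387).

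Of 29 listed nuclear genes for mitochondrial transcription, splicing, editing and RNA stability, 5 were measured. From 0 h to 48 h S, 3 were called higher and 1 lower in WT, beside 28.4% and 44.7% of all probe sets. In tim17-1 3 were higher and 0 lower, beside 26.8% and 32.9%. *OTP43* and *AT1G74350*, with means of 7.37 and 6.50 over all arrays, were near the bottom of the measured range. *AT5G14580*, a polynucleotide phosphorylase that trims and degrades mitochondrial RNA, rose by 2.00 ± 0.136 in WT and by 2.19 ± 0.136 in tim17-1. *AT5G15700*, a phage-type RNA polymerase of mitochondria and plastids, rose by 0.92 ± 0.111 in WT and by 0.65 ± 0.111 in tim17-1. Between 6 h SL and 24 h SL 3 were called lower in WT, beside 25.1% of all probe sets, and 4 in tim17-1, beside 22.5%. *AT5G14580* changed by -1.74 ± 0.136 and *AT5G15700* by -1.56 ± 0.111 in WT. Any link of these genes to the levels of the 6 transcripts was not tested.

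**Figure D4:**
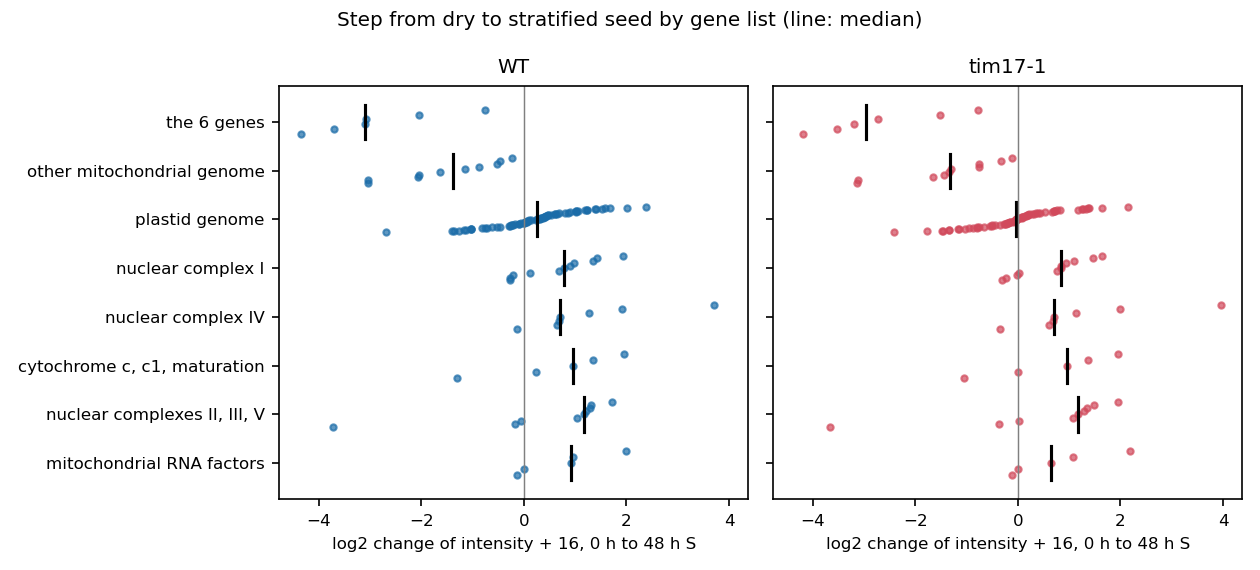
Change in log2(intensity + 16) from 0 h to 48 h S for each measured gene of each list, in WT and tim17-1; points are genes and the upright line is the list's median. The 6 genes have medians of -3.10 and -2.97, the other mitochondrial genome genes of -1.39 and -1.32, and the nuclear lists for respiratory complexes have medians above 0.

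The genes with profiles most like the 6 were found over the 8 group means among 5717 probe sets with 1 gene and a mean intensity over 64. For the mean profile of the 6 genes, *AT3G03210*, *AT5G38220*, *AT3G24070*, *AT3G19900* and *AT1G23460* came first, with Pearson's r from 0.995 to 0.996. Gene by gene, *nad6* was closest to a second probe set of *nad5* (r = 0.999), which read 342 ± 20.7 in WT and 248 ± 13.5 in tim17-1 dry seed (SD, n = 3), where the *nad5* probe set described above read 516 ± 23.9 and 479 ± 9.12. *nad4L* was closest to *AT2G03280* (r = 0.999), *cox2* to *AT5G42950* (r = 0.997) and *nad9* to *AT1G33420* (r = 0.997). *ccb206* was closest to *AT3G28750* (r = 0.995), and *ccb382* to *AT5G35170* with the lowest such value (r = 0.983). Apart from that of *ccb382*, these values describe 8 means dominated by the gap between dry and imbibed seed. The means of *ccb382* and *AT5G35170* were lowest at 48 h S and highest at 24 h SL.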

How the data were processed

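Per the labels' protocols, 80 mg of seed gave the total RNA of a sample, of which 400 ng was made into biotinylated RNA for single-colour Affymetrix arrays. The authors deposited linear intensity values for 24 arrays. MAS5, RMA and Partek are named, per the submitters' processing notes, with no step given for each. The scaling of the arrays to each other is not stated in the sources used here. The number of arrays limits the precision. Titles gave the groups and replicate numbers. The 64 control probe sets were left out, which left 22746 of 22810. The platform annotation gave 1 gene for 13513 probe sets, several for 503 and none for 8730, and 13436 were named through a TAIR10.1 gene table. No genome build is named by the files, and no sequence is shown.

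Values were analysed as log2(value + 16) in R 4.3.3 with limma 3.58.1 (lmFit, eBayes), as 8 group means over 24 arrays with 16 residual degrees of freedom, with Benjamini-Hochberg adjustment over 22746 probe sets. Contrasts were genotypes within stages and averaged, steps within genotypes, and differences of steps. In simulated data (22746 probe sets, 200 changed) the model recovered 64.2% of changes of 0.5 log2 units between genotypes at 0 h, with 7.94% false calls, and 26.9% of differences of 0.5 log2 units in the step from 0 h to 48 h S, with 7.33% false calls.

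The 6 genes and all gene lists were chosen with earlier results of these data known. In each list up to 3 genes called with the largest change could be named, 1 probe set per gene (highest mean). Alternatives were the offset, scaling, a filter on weak probe sets, array weights, the arrays in the model, the replicate number as a block and leaving out each array.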

Additional observations from a re-analysis of the deposited data

Results flagged for a closer look

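The fall of *ccb206*, a gene of cytochrome c maturation, from 0 h to 48 h S differed between genotypes in a direct test of the difference. It fell by 2.05 log2 units in WT and by 1.52 log2 units in tim17-1, a difference of 0.53 (SE 0.0780, limma adjusted p = 0.00067). Over the alternatives the difference ranged from 0.33 to 0.62, with adjusted p under 0.05 wherever *ccb206* was tested. Both stratified groups were near the bottom of the measured range, with means of 7.31 in WT and 6.96 in tim17-1, which cuts both falls short. The value is thus largely the dry seed difference (-0.55) given again, beside -0.02 at 48 h S. The 3 dry seed arrays of tim17-1 lay below the 3 of WT, and the stratified arrays overlapped. The pollen markers and the ubiquitin 3' to 5' difference also differed between genotypes in dry seed, and their part was not tested.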

How the results depend on the processing

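The falls of the 6 genes from 0 h to 48 h S were called in both genotypes under every alternative in which a gene was tested, each array left out included. Of 644 gene values under other settings, 599 kept direction and call, 17 lost the call, 19 gained it and 9 reversed. Each reversal concerned a value that was not called.

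Counts of the 6 genes that moved by over 1.5 times are given by setting, and smaller moves, of 1 gene or of the untested *nad6* and *ccb206*, are left out. With an offset of 1, 2 were higher in WT from 48 h S to 6 h SL. With an offset of 64, 0 were lower at 24 h SL and 1 in WT from 48 h S to 6 h SL, and the 0 h to 48 h S step differed higher in 2. With probe sets over an intensity of 64 alone, which leaves *nad6* and *ccb206* untested, the counts were 2 lower at 0 h, 1 lower in WT from 48 h S to 6 h SL and 0 for the 0 h to 48 h S difference. With array weights there were 2 lower at 0 h, 3 at 48 h S, 0 at 24 h SL and 5 on average. Array weights also gave 2 higher in WT from 48 h S to 6 h SL, 2 for the 0 h to 48 h S difference, and 1 higher and 1 lower for the 48 h S to 6 h SL difference. On the arrays compared alone, 0 were lower at 0 h, 6 h SL and 24 h SL, and 0 were higher and 5 lower in tim17-1 from 6 h SL to 24 h SL. Without dry seed 1 was lower on average. Why these counts moved was not tested, apart from the genes left untested.

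Leaving out 1 array gave 0 to 1 lower at 24 h SL, 3 to 5 on average, 1 to 2 higher in WT from 48 h S to 6 h SL, 0 to 1 higher in tim17-1 from 6 h SL to 24 h SL, and 1 to 2 for the 0 h to 48 h S difference. The average reached 5 without WT 48 h S replicate 3. The 2 higher in WT from 48 h S to 6 h SL came without tim17-1 0 h replicate 2 or 3, where *ccb206* was added.

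Reversed values of the 0 h to 48 h S difference were 0.021 for *nad4L* (offset of 64), and 0.020 (cyclic loess) and 0.00050 (quantile normalization) for *ccb382*. Under cyclic loess *nad4L* was 0.0034 between genotypes at 6 h SL and *ccb206* -0.0012 in tim17-1 from 48 h S to 6 h SL. Under quantile normalization *ccb382* was 0.0017 at 6 h SL, *nad9* 0.021 at 24 h SL and *nad9* -0.031 in WT from 48 h S to 6 h SL. Without dry seed the average of *ccb382* was -0.021.

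With 1 array left out, ranges that crossed 0 between genotypes at 6 h SL were -0.12 to 0.056 (*nad4L*), -0.00084 to 0.058 (*nad6*) and -0.082 to 0.051 (*ccb382*). At 24 h SL they were -0.0071 to 0.0082 (*nad6*), -0.10 to 0.065 (*nad9*) and -0.019 to 0.013 (*ccb206*). In tim17-1 from 48 h S to 6 h SL the range was -0.0072 to 0.032 (*ccb206*). Differences of steps ranged from -0.072 to 0.0015 (*ccb382*, first step), -0.11 to 0.071 (*nad4L*, last step) and -0.21 to 0.0028 (*ccb382*, last step).

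Replicate numbers did not pair the arrays: deviations of arrays with the same number correlated at -0.26 to 0.091 between genotypes of a stage. With a replicate block *cox2* at 0 h stood at -0.35 (limma adjusted p = 0.0121), and the block changed no call of the 6 genes.

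Counts over all probe sets moved by over 1.5 times in most comparisons of genotypes. Against 300 higher and 531 lower at 0 h, alternatives gave 6 to 624 and 33 to 664, and against 82 and 198 at 48 h S, 28 to 2242 and 73 to 1864. Against 116 and 175 at 6 h SL they gave 0 to 311 and 0 to 536, and against 362 and 621 at 24 h SL, 0 to 521 and 4 to 788. Lower counts from 0 h to 48 h S were 10163 in WT (4141 to 10764) and 7482 in tim17-1 (4297 to 8098), and in tim17-1 from 48 h S to 6 h SL 4374 (3541 to 6956). Differences of steps gave 349 higher and 261 lower for the first step (178 to 530 and 137 to 519), 107 and 56 for the second (38 to 777 and 19 to 934), and 91 and 258 for the last (17 to 370 and 45 to 460). Cyclic loess moved the share of higher calls from 38.9% to 55.7% in WT and from 44.9% to 56.4% in tim17-1 from 0 h to 48 h S, from 29.3% to 43.3% at 48 h S, from 39.9% to 50.8% at 6 h SL and from 36.8% to 25.1% at 24 h SL. For the differences of the first and last step it moved from 57.2% to 73.2% and from 26.1% to 15.5%. Quantile normalization gave 43.7% at 48 h S and 52.7% at 6 h SL. No scaling moved the median of all probe sets by over 0.1 log2 units. No member had a second probe set, so the alternative with the lowest probe set was not run. Low intensities limit *nad6* and *ccb206* after 0 h.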

Other observations

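Plastid genome genes moved in both directions. Of 69 measured of 78, 29 were called higher and 18 lower in WT from 0 h to 48 h S (median 0.26), beside 28.4% and 44.7% of all probe sets. In tim17-1 16 were higher and 23 lower (median -0.03), beside 26.8% and 32.9%. No test of their difference from the mitochondrial genes was run. *psbN* changed by 2.39 ± 0.247 and *ndhK*, of the plastid NDH complex, by 2.01 ± 0.183 in WT, while *psbA*, a photosystem II core protein, changed by -2.69 ± 0.269. Between 6 h SL and 24 h SL *rbcL*, the large subunit of Rubisco, rose by 1.52 ± 0.239 in WT and by 1.55 ± 0.239 in tim17-1.

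Loci on chromosome 2 in the stretch that copies the mitochondrial genome were listed after seeing the data. Of 67 loci 33 were measured, and from 0 h to 48 h S 18 were called lower in WT (median -0.07), beside 44.7% of all probe sets, and 16 in tim17-1 (median -0.08), beside 32.9%, with 0 higher in both. The 0 higher stood beside 28.4% of all probe sets in WT and 26.8% in tim17-1. Many of these loci were near the bottom of the measured range, which limits the medians. Among brighter loci *AT2G07777* changed by -3.06 ± 0.145 and *AT2G07741* by -2.73 ± 0.0993 in WT. *AT2G07707* changed by -3.53 ± 0.108 in WT and by -3.41 ± 0.108 in tim17-1, in the range of *nad9* and *nad4L*. From 48 h S to 6 h SL it rose by 1.13 ± 0.108 in WT and by 1.12 ± 0.108 in tim17-1. Over that step 2 of 33 loci were called higher and 0 lower in WT, beside 19.4% and 18.4% of all probe sets. In tim17-1 1 was called higher and 1 lower, beside 18.9% and 19.2%. Between 6 h SL and 24 h SL *AT2G07707* changed by -2.27 ± 0.108 and -1.77 ± 0.108. Whether such probe sets read nuclear or mitochondrial RNA was not tested. *matR*, another mitochondrial genome gene, read 6.19, 82.26 and 68.1 in tim17-1 dry seed, with the low value in replicate 1, the array that stood apart from its group.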
